A study of Caenorhabditis elegans with 10 samples.

Results

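The genes described here encode 10 RNA-binding proteins of the *C. elegans* germline and oocyte: *lin-41*, *oma-1*, *oma-2*, *puf-5*, *spn-4*, *pos-1*, *mex-3*, *gld-1*, *fbf-1* and *fbf-2*. They were chosen by name for what their proteins are known to do, and all 10 were found among the 15106 genes measured. RNA was sequenced from whole young adults of the mutants *clk-2*, *smg-1* and *smg-2* and of N2, the wild type, to ask whether CLK-2 acts with the SMG proteins in nonsense-mediated decay (NMD), the pathway that degrades mRNAs with a premature stop codon. At 20°C each strain gave 2 libraries. In addition, *clk-2* and N2 gave 1 library each from animals placed at 25°C for 3 hours, a treatment that the labels call heat shock.

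In the study's figure of these transcriptomes the *clk-2* animals are *clk-2(qm37)*, a temperature-sensitive allele. By the strain list this strain carries the R-2 reporter transgene, in which an mCherry-histone mRNA is followed by a piece of *lin-41*. Another temperature-sensitive *clk-2* strain of that list carries the same reporter. The *smg-1* animals carry *smg-1(rrr59)* and the *smg-2* animals carry *smg-2(rrr60)*, alleles isolated in a mutagenesis screen, and both carry the R-1 reporter, a GFP-histone mRNA with a piece of *ets-4*. Both reporters are driven by the *dpy-30* promoter, which is active in most cells, and N2 carries neither, so the mutation and the strain background cannot be told apart. The *clk-2* columns of the data are headed by a mixture of 2 *clk-2* allele names, so the header does not settle the allele. None of the *smg* or N2 samples could be meant by it. The permissive temperature of *clk-2* is 15°C in the methods, whereas 20°C is used as such elsewhere in the study.

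In the hermaphrodite gonad, germ cells pass from a mitotic zone through meiotic prophase into oocytes, and little is transcribed in a maturing oocyte or in the first embryonic divisions. Gene expression in these cells is therefore run largely by proteins that bind the 3′UTRs of stored mRNAs and repress or activate their translation. FBF-1 and FBF-2 act in the mitotic zone and GLD-1 in the pachytene region, LIN-41, OMA-1, OMA-2 and PUF-5 act in growing oocytes, and SPN-4, POS-1 and MEX-3 are made from maternal mRNA and direct cell fates in the embryo. Below, *fbf-1*, *fbf-2* and *gld-1* are called the early genes, and the other 7 the late genes.

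The libraries held 3051836 to 14209955 counted reads, and the shallowest were *clk-2* at 25°C and *clk-2* replicate 1 at 20°C, in which 1 read was worth 2.93 and 2.59 normalized counts. The lowest count of any of the 10 genes was 65 reads. A normalized read count is the number of reads divided by a size factor of the library, and fold changes are given as log2 differences of the value + 1. A gene was called higher or lower at a Benjamini-Hochberg adjusted p under 0.05 in limma, over 13869 genes in a fit of the 8 libraries at 20°C. The replicates of each strain differed by more than sampling noise, with a chi-square per degree of freedom of 5.27 to 7.96 in the mutants and 21.6 in N2. Nothing in the labels says that replicates came from separate cultures, so the p-values measure the spread between these libraries, which may be technical. With whole animals as the source, fewer germ cells of a kind and less RNA per cell cannot be told apart.

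In the WBcel235 assembly, as annotated by Ensembl, *lin-41* (WBGene00003026) spans 9334800 to 9342496 on the minus strand of chromosome I, which also holds *gld-1* (WBGene00001595, 7695681 to 7698222, plus strand) and *mex-3* (WBGene00003229, 127285 to 134270, plus strand). Chromosome II holds *puf-5* (WBGene00004241, 8575541 to 8577787, plus strand) and, on the minus strand and 8019 bases apart, *fbf-1* (WBGene00001401, 6078263 to 6080843) and *fbf-2* (WBGene00001402, 6088863 to 6091480). Chromosome V holds *oma-2* (WBGene00003865, 8029439 to 8031214, plus strand), *pos-1* (WBGene00004078, 8414086 to 8415254, plus strand) and *spn-4* (WBGene00004984, 6783187 to 6784903, minus strand). *oma-1* (WBGene00003864) lies on chromosome IV from 8888976 to 8890999, on the plus strand. All 10 are annotated as protein-coding, 8 of them with a single transcript, *lin-41* with 4 and *mex-3* with 5. Exons of *spn-4* share 8 bases, and those of *fbf-1* 15 bases, with a gene on the other strand, and the use of strand in counting is not given in the sources used here.

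Per kilobase of exon, *spn-4* was the most abundant of the 10 in N2 at 20°C, at 1813 ± 208 normalized counts per kb (SD, n = 2). *gld-1* (968 ± 21.0) and *pos-1* (967 ± 128) followed and did not differ beyond their spread. *mex-3* stood at 796 ± 84.6, below both. *puf-5* (607 ± 101) and *oma-2* (520.3 ± 76.6) overlapped, as did *fbf-1* (149 ± 10.1) and *fbf-2* (140.1 ± 10.2) at the low end, and between these pairs lay *oma-1* (303 ± 36.8) and *lin-41* (245 ± 16.6). The 10 genes together took 0.138% to 0.178% of all normalized counts in *clk-2* at 20°C, 0.0725% to 0.0772% in *smg-1*, 0.0969% to 0.107% in *smg-2* and 0.118% to 0.133% in N2.

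At 20°C the log2 differences of the late genes from N2 were above 0 in *clk-2* and below 0 in *smg-1*. In *clk-2*, 3 of the 10 genes were called higher than in N2, *lin-41*, *oma-2* and *pos-1*, by 1.4- to 1.5-fold, while 12.2% of all genes tested were called higher. In *smg-1*, 9 of the 10 genes were called lower than in N2, by log2 changes of -0.60 to -1.13, while 9.25% of all genes tested were called lower. In *smg-2* all 10 log2 changes were below 0, from -0.52 to -0.07, but limma called 0 of them lower and 0 higher, against 0.981% of all genes called lower and 8.12% called higher there. The 3 comparisons share the N2 libraries, so their values are set side by side and their likeness was not tested.

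**Figure D1:**
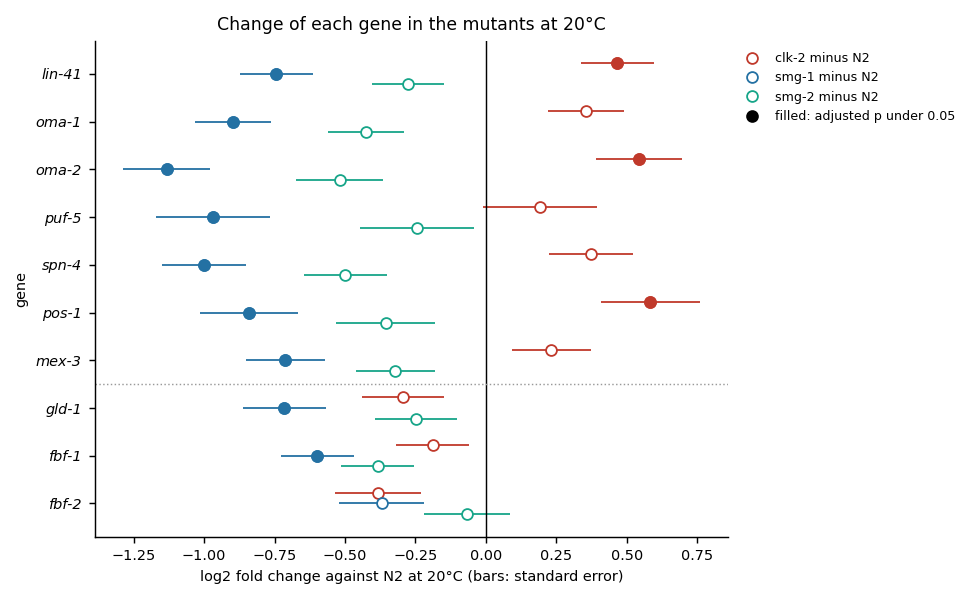
Log2 fold change of each gene against N2 at 20°C (x axis, log2 of normalized count + 1) in *clk-2*, *smg-1* and *smg-2*, with bars for the standard error and filled points for an adjusted p under 0.05 in limma; the dotted line parts the 7 late genes from *gld-1*, *fbf-1* and *fbf-2*. In *clk-2* the late genes lie to the right of 0, from 0.19 to 0.58, and the other 3 to the left, whereas all 10 lie to the left in *smg-1* and *smg-2*.

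*lin-41* encodes a TRIM-NHL protein that represses mRNAs in oocytes until they mature and that also times development of the larval soma. It had 1507 and 1749.6 normalized counts in *clk-2*, 771 and 638 in *smg-1*, 928 and 1013 in *smg-2* and 1232 and 1119.7 in N2 at 20°C. Both *clk-2* libraries were above both N2 libraries, and all 4 *smg* libraries were below them, with no overlap between any 2 strains. The log2 fold change against N2 was 0.47 in *clk-2* (standard error 0.13, adjusted p = 0.0236 from limma), -0.74 in *smg-1* (adjusted p = 0.00351) and -0.28 in *smg-2* (adjusted p = 0.255).

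The R-2 reporter of the *clk-2* strain contains the last 2 coding exons of *lin-41* and the intron between them. In the annotation these exons lie on chromosome I at 9336173 to 9336443 (271 bases) and 9335968 to 9336126 (159 bases), and their 430 bases are 8.94% of the 4810 exon bases of the gene. The deposited value of *lin-41* is a single number for the whole gene, so reads of the reporter and of the endogenous gene cannot be told apart in *clk-2*. Relative to the mean of the other 6 late genes, and to N2 at 20°C, *lin-41* stood 0.18 higher (log2) in *clk-2* replicate 1 and level with them, at -0.0041, in replicate 2. In *smg-1*, which lacks this reporter, the same measure was 0.24 and 0.12, and in *smg-2* it was 0.11 and 0.13. In N2 it was -0.065 and 0.065. At 20°C the *clk-2* libraries overlapped both the *smg* and the N2 libraries in this measure, and the *smg* libraries all lay above N2. The part of reporter reads in the *lin-41* value was not tested.

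*oma-1* and *oma-2* encode CCCH zinc finger proteins that act redundantly in oocyte maturation. *oma-2* had 1043 and 1304 normalized counts in *clk-2*, 385 and 344 in *smg-1*, 517 and 602 in *smg-2* and 888 and 721 in N2. Among the 10 genes it had the widest range over the 10 libraries, 3.78-fold, and the 4 strains did not overlap. Its log2 fold change was 0.54 in *clk-2* (standard error 0.15, adjusted p = 0.0261 from limma), -1.13 in *smg-1* (adjusted p = 8.45e-04) and -0.52 in *smg-2* (adjusted p = 0.0702). *oma-1*, the less abundant of the pair per kilobase, had 665 and 729.8 normalized counts in *clk-2*, 316 and 269.8 in *smg-1*, 416 and 395 in *smg-2* and 593 and 499.7 in N2. The strains of *oma-1* stood in the same order without overlap, but its log2 difference of 0.36 in *clk-2* missed the threshold (adjusted p = 0.0789 from limma), while -0.90 in *smg-1* passed it (adjusted p = 0.00155) and -0.43 in *smg-2* did not (adjusted p = 0.0913). The ratio of *oma-1* to *oma-2* was 0.638 and 0.560 in *clk-2*, 0.820 and 0.784 in *smg-1*, 0.804 and 0.656 in *smg-2* and 0.668 and 0.693 in N2.

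*pos-1* and *spn-4* are maternal regulators of embryonic cell fate, a CCCH zinc finger protein and an RRM protein. *pos-1* had 1328 and 1959 normalized counts in *clk-2*, 634 and 569 in *smg-1*, 814 and 868 in *smg-2* and 1182 and 979 in N2. Its fold change in *clk-2* was the largest of the 10 genes at 0.58 (standard error 0.17, adjusted p = 0.0328 from limma), and its replicates there were far apart. In *smg-1* it fell by 0.84 on the log2 scale (adjusted p = 0.00876), and in *smg-2* the change was -0.36 (adjusted p = 0.280). *spn-4* had 3163 and 4014 normalized counts in *clk-2*, 1399 and 1354 in *smg-1*, 1743 and 2177 in *smg-2* and 2986 and 2538 in N2. The strains again did not overlap, and the 2 *smg-1* libraries lay near to each other. The log2 difference of *spn-4* was 0.37 in *clk-2* (adjusted p = 0.0919 from limma) and -0.50 in *smg-2* (adjusted p = 0.0717). In *smg-1* it fell to 0.50 times the level in N2 (standard error of the log2 change 0.15, adjusted p = 0.00145).

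*mex-3* encodes a KH-domain protein that represses translation in the oocyte and early embryo, and *puf-5* a PUF-family repressor of late oogenesis. *mex-3* had 1685 and 2150.2 normalized counts in *clk-2*, 1018 and 962 in *smg-1*, 1208 and 1393 in *smg-2* and 1747 and 1503 in N2. The *clk-2* and N2 libraries overlapped (log2 difference 0.23, adjusted p = 0.255 from limma), and both *smg-1* libraries were below N2 (-0.71, adjusted p = 0.00663). *puf-5* had 1129 and 1799.7 normalized counts in *clk-2*, 685 and 594 in *smg-1*, 1091 and 1017 in *smg-2* and 1404 and 1108 in N2. *puf-5* in *clk-2* spread over a wider range than in any other strain, on both sides of N2 replicate 1. Its log2 difference was 0.19 (standard error 0.20, adjusted p = 0.527 from limma) with both libraries and -0.14 without *clk-2* replicate 2. In *smg-1* it fell by 0.97 (adjusted p = 0.00888).

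The 3 early genes had log2 differences below 0 in all 3 mutants. *gld-1*, whose STAR-family protein represses oocyte mRNAs in the pachytene region and is needed for meiosis, had 1548 and 1983 normalized counts in *clk-2*, 1227 and 1395 in *smg-1*, 1619.7 and 2020.1 in *smg-2* and 2116 and 2182 in N2. All 6 mutant libraries were below both N2 libraries. The log2 difference was -0.29 in *clk-2* (standard error 0.15, adjusted p = 0.171 from limma), -0.72 in *smg-1* (adjusted p = 0.00827) and -0.25 in *smg-2* (adjusted p = 0.382), so only the fall in *smg-1* was called.

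*fbf-1* and *fbf-2* encode closely related PUF proteins that keep germline stem cells in the mitotic state. Reads with several matches were dropped upstream, so they are measured on the parts in which they differ. *fbf-1* had 289.9 and 300.3 normalized counts in *clk-2*, 209.7 and 234.7 in *smg-1*, 259.5 and 255 in *smg-2* and 321 and 353 in N2. All mutant libraries of *fbf-1* were again below N2, and the change was called in *smg-1* (-0.60, adjusted p = 0.0109 from limma) but not in *clk-2* (-0.19, adjusted p = 0.324) or *smg-2* (-0.38, adjusted p = 0.113). *fbf-2* had 230.4 and 260.4 normalized counts in *clk-2*, 267 and 229 in *smg-1*, 333 and 279.8 in *smg-2* and 337 and 304 in N2. It was the 1 gene of the 10 not called by limma in any comparison at 20°C: its log2 difference from N2 was -0.38 in *clk-2* (adjusted p = 0.0893 from limma), -0.37 in *smg-1* (adjusted p = 0.112) and -0.07 in *smg-2* (adjusted p = 0.867). Over the 10 libraries *fbf-1* ranged 1.68-fold and *fbf-2* 1.77-fold, the narrowest of the 10 genes.

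**Figure D2:**
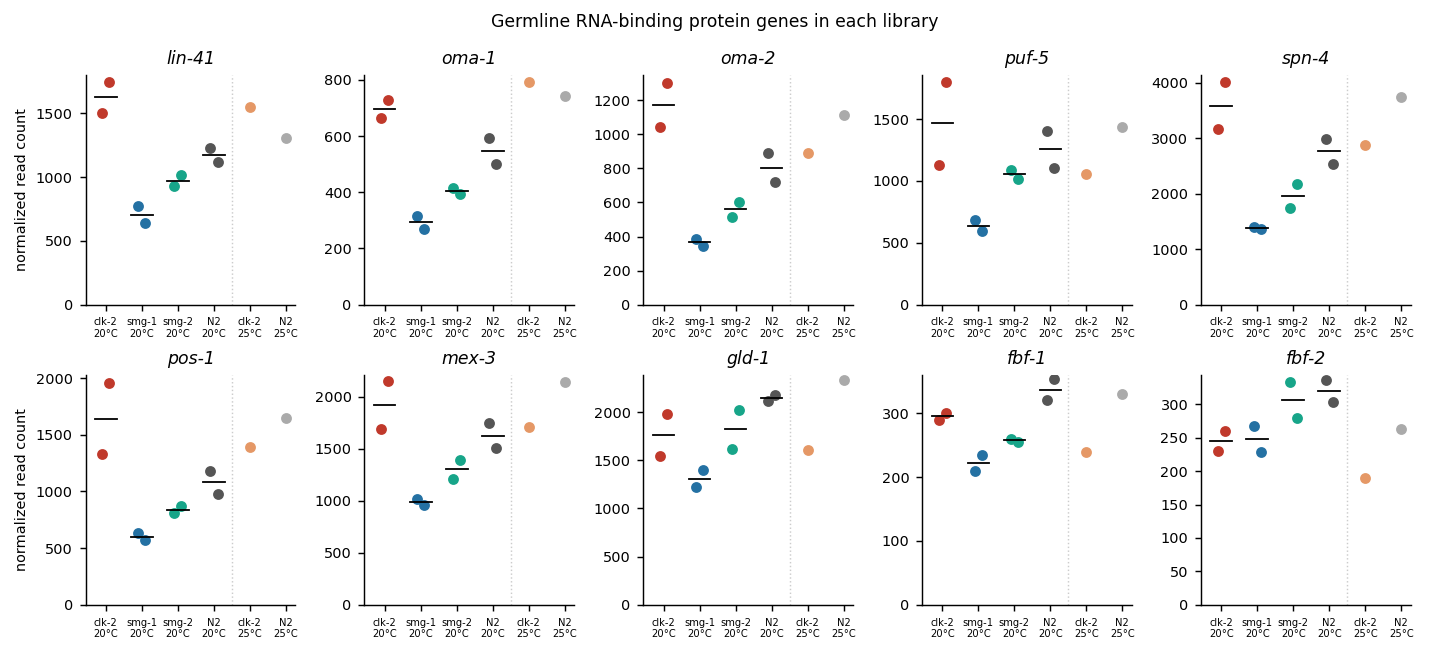
Normalized read count (y axis, from 0, its scale set for each gene) of the 10 genes in every library, grouped by strain and temperature; each point is a library and each line the mean of 2. In *lin-41*, *oma-1*, *oma-2*, *spn-4* and *pos-1* the *clk-2* points at 20°C lie above N2 and the *smg* points below it, and *gld-1*, *fbf-1* and *fbf-2* have their highest 20°C mean in N2.

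Counted together for *clk-2* against N2 at 20°C, the groups did not overlap in 8 genes. The *clk-2* libraries were the higher ones in 5, all of them late genes, and the lower ones in the 3 early genes, while 29.9% of all genes tested lay above N2 and 28.9% below it in this way. The median log2 difference was 0.37 for the 7 late genes, -0.29 for the 3 early genes and 0.018 for all genes tested. None of the 10 was called lower with limma, edgeR or DESeq2 (0 each), and 1, *fbf-2*, was lower at an unadjusted p under 0.05, against 20.6% of all genes at that threshold and 15.8% after adjustment. edgeR called 3 genes higher, against 12.1% of all genes, and DESeq2 4, against 9.44%. The 3 higher calls rested on the deeper *clk-2* library and on N2 replicate 2: without *clk-2* replicate 2, or without N2 replicate 2, limma called 0. Over all alternatives the adjusted p of *lin-41* ranged up to 0.110, that of *oma-2* up to 0.133 and that of *pos-1* up to 0.168, with every estimate of these 3 genes above 0.

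Between *smg-1* and N2, the 9 lower calls held 7 late genes, *gld-1* and *fbf-1*, and edgeR and DESeq2 called 9 as well, against 7.51% of all genes with edgeR and 8.43% with DESeq2. Both *smg-1* libraries lay below both N2 libraries in all 10 genes, compared with 32.6% of all genes tested. The median log2 change was -0.90 for the late genes, -0.60 for the early genes and -0.023 for all genes tested. Leaving out any of the 8 libraries in turn left 6 to 9 genes called lower. The threshold used in the study, a log2 fold change beyond 1 at an unadjusted p under 0.05, was passed by *oma-2* and by no other gene of the 10.

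In *smg-2* the same genes lay nearer to N2. Both *smg-2* libraries were below both N2 libraries in 9 of the 10 genes, *fbf-2* being the exception, compared with 26.1% of all genes tested. At the adjusted threshold limma and edgeR called 0, while DESeq2 called 2 lower, against 1.37% of all genes. At an unadjusted p under 0.05, 5 were lower, *oma-1*, *oma-2*, *spn-4*, *mex-3* and *fbf-1*, against 8.21% of all genes. The median log2 difference was -0.36 for the late genes, -0.25 for the early genes and -0.024 for all genes tested. Without N2 replicate 2, limma called 3 of the 10 lower, against 1.58% of all genes. It called 1 lower without *clk-2* replicate 1 or without *clk-2* replicate 2, which share the estimate of the spread. For the fits without a *clk-2* library the share of all genes is not given here, so no reading is drawn from that 1.

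The mutants were also compared directly, without N2 in the difference. *clk-2* was called higher than *smg-1* in 9 of the 10 genes, with log2 fold changes of 0.41 to 1.68, while 18.8% of all genes tested were called higher. The groups did not overlap in these 9, compared with 36.5% of all genes lying above in this way. *oma-2* had the largest, 3.20-fold (log2 1.68, standard error 0.15, adjusted p = 3.81e-05 from limma), and the change exceeded 2-fold in *lin-41* (2.31), *oma-1* (2.38), *spn-4* (2.59), *pos-1* (2.68) and *puf-5* (2.23). *mex-3* was 1.92-fold higher. *gld-1* (0.42, adjusted p = 0.0424) and *fbf-1* (0.41, adjusted p = 0.0293) were called higher by less, and the *clk-2* and *smg-1* libraries of *fbf-2* overlapped (-0.01, adjusted p = 0.952).

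Against *smg-2*, *clk-2* was called higher in 6 of the 10 genes, compared with 15.8% of all genes tested. These were 6 of the 7 late genes, *lin-41* (0.74), *oma-1* (0.78), *oma-2* (1.06), *spn-4* (0.87), *mex-3* (0.55) and *pos-1* (0.94), with adjusted p-values from 5.57e-04 to 0.0115 in limma. *puf-5* (0.44, adjusted p = 0.115) did not pass the test, though its *clk-2* libraries lay above those of *smg-2*, as they did in 8 of the 10 genes and in 35.6% of all genes. *fbf-2* lay below, as 36.7% of all genes did. The early genes *gld-1* (-0.05, adjusted p = 0.831), *fbf-1* (0.20, adjusted p = 0.265) and *fbf-2* (-0.32, adjusted p = 0.126) did not pass it either.

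In a comparison added after the values were seen, both *smg-1* libraries were below both *smg-2* libraries in all 10 genes, compared with 31.2% of all genes tested. The log2 differences ran from -0.72 in *puf-5* to -0.21 in *fbf-1*. Limma called 0 of them lower, against 0.498% of all genes, and edgeR called 0. DESeq2 called 3, against 1.62% of all genes, and 8 were lower at an unadjusted p under 0.05 in limma, against 6.86%. When the 2 *smg* strains were fitted alone, limma called 8, against 5.11% of all genes.

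At 25°C the direction in *clk-2* differed between late genes. With 1 library of each strain there is no replicate check and no test, and the 95% intervals given here cover counting error only. *lin-41* had 1551 normalized counts in *clk-2* and 1303 in N2, a log2 difference of 0.25 (interval 0.11 to 0.39). *oma-1* had 793 in *clk-2* and 744 in N2, with an interval that includes 0 (0.09, from -0.10 to 0.29). These 2 were the only genes of the 10 above N2 at this temperature.

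The other 8 genes were lower in *clk-2* than in N2 at 25°C, by more than counting error. *oma-2* had 889.7 normalized counts in *clk-2* and 1115 in N2 (log2 difference -0.33), and *spn-4* had 2868 in *clk-2* and 3739 in N2 (-0.38). *pos-1* had 1393 in *clk-2* and 1649 in N2 (-0.24), and *mex-3* had 1706 in *clk-2* and 2145 in N2 (-0.33). *puf-5* had 1054 in *clk-2* and 1434 in N2 (-0.44). Of the late genes that were called higher in *clk-2* at 20°C, *oma-2* and *pos-1* were thus on the other side of N2 at 25°C. *gld-1*, with 1609.6 in *clk-2* and 2332 in N2 (-0.53), *fbf-1*, with 240.0 in *clk-2* and 330.4 in N2 (-0.46), and *fbf-2*, with 190.2 in *clk-2* and 263 in N2 (-0.47), kept their side. None of the 10 differed by more than 1 on the log2 scale, while 12.7% of all genes lay above 1 and 6.19% below -1.

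Set against the same strain at 20°C, the 25°C library of N2 was higher in all 7 late genes, by 0.15 in *lin-41* to 0.62 in *pos-1*. In *clk-2* the 25°C library was lower than the mean at 20°C in 6 of the late genes, by -0.44 in *puf-5* to -0.07 in *lin-41*, and *oma-1* was the exception at 0.19. Of these 6, *oma-2*, *spn-4* and *puf-5* lay below both *clk-2* libraries at 20°C, whereas *lin-41*, *mex-3* and *pos-1* lay between them. Relative to N2 at 20°C, the mean log2 level of the late genes was 0.19 in *clk-2* and 0.39 in N2 at 25°C. In *clk-2* at 20°C it was 0.21 in replicate 1 and 0.58 in replicate 2. No gene of the 10 moved by more than 1 with temperature, against 1.18% of all genes above 1 and 3.09% below -1 in N2, and 3.78% above and 3.01% below in *clk-2*. *lin-41* relative to the other 6 late genes was 0.24 higher than in N2 at 20°C in *clk-2* at 25°C, and 0.28 lower in N2 at 25°C (-0.28).

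**Figure D3:**
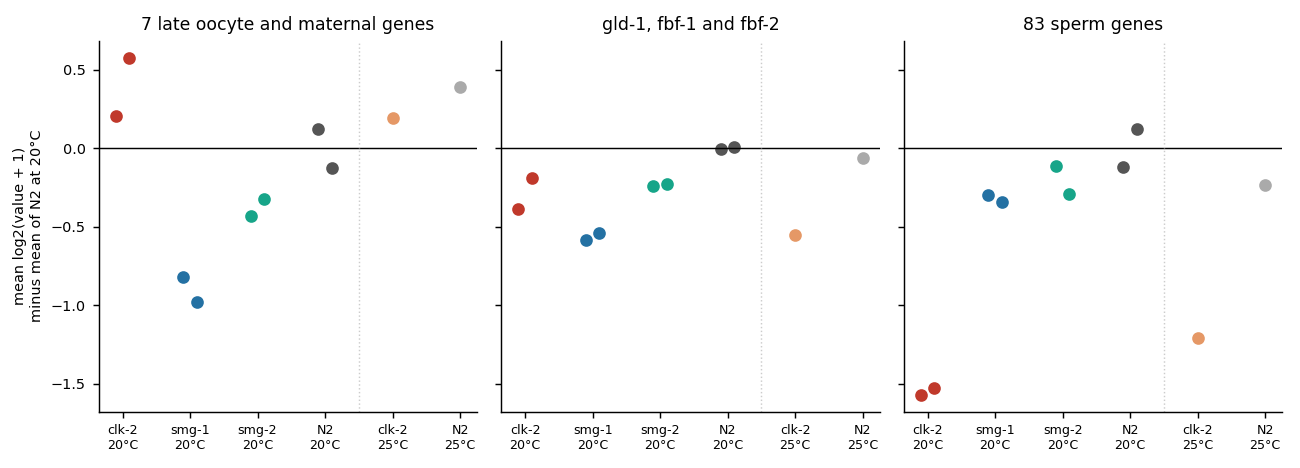
Mean log2(normalized count + 1) of the 7 late genes, of *gld-1*, *fbf-1* and *fbf-2*, and of 83 sperm genes in each library, minus the mean of N2 at 20°C (y axis, the same in the 3 panels); each point is a library. The *clk-2* libraries at 20°C lie above 0 in the late genes (0.21 and 0.58), below 0 in the early genes (-0.39 and -0.19) and lowest of all in the sperm genes (-1.57 and -1.53).

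Whether the late genes moved with or against sperm genes was read from a list of genes taken as sperm genes. It held the major sperm protein genes (*msp*), the genes named *nspd*, *ssp* or *spe*, and *gsp-3*, *gsp-4*, *peel-1* and *fer-1*. In *clk-2* at 20°C, all 82 sperm genes tested had a log2 change below 0, with a median of -1.63. Limma called 71 of them lower, against 15.8% of all genes. *msp-31*, a major sperm protein gene, had 595 and 684 normalized counts in *clk-2* and 2421 and 2447 in N2 (log2 change -1.93, adjusted p = 2.58e-05 from limma). *ssp-10*, a small sperm protein gene, had 621 and 682 in *clk-2* and 2076 and 1870.0 in N2 (-1.60). The mean of the late genes minus that of the sperm genes, relative to N2, was 1.78 and 2.11 in *clk-2*, -0.52 and -0.64 in *smg-1*, -0.32 and -0.031 in *smg-2* and 0.25 and -0.25 in N2. In *clk-2* the late and the sperm genes thus lay on opposite sides of N2 at 20°C. In *smg-1* both lay below both N2 libraries, and the difference was outside the N2 range in both replicates. In *smg-2* the sperm genes overlapped N2, and the difference lay outside the N2 range in replicate 1 and inside it in replicate 2. Genes of the *msp* family are near-identical copies, so single members are uncertain.

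In the *smg* mutants fewer sperm genes were called than in *clk-2*. In *smg-1*, 27 of the 82 were called lower and 3 higher, *msp-74*, *spe-5* and *spe-44*, with a median of -0.32. Of all genes, 9.25% were called lower and 12.3% higher there, and the 3 higher were below that share. In *smg-2*, 8 were called lower and 4 higher, the same 3 and *ssp-37*, with a median of -0.27, and these genes were named after their values were seen. Of all genes, 0.981% were called lower and 8.12% higher in *smg-2*, and the 4 higher were below that share. At 25°C the median of the sperm genes in *clk-2* against N2 was -0.97, and 40 of the 82 lay below -1, against 6.19% of all genes. The median of the 7 late genes in this comparison was -0.33, with 5 below 0 and 2 above. Both medians were thus on the same side of N2 at 25°C, with 1 library per strain. Late minus sperm genes, relative to N2 at 20°C, was 1.40 in *clk-2* and 0.62 in N2 at 25°C. The sums of the sperm genes took 0.159% to 0.163% of the library in *clk-2* at 20°C, 0.350% to 0.357% in *smg-1*, 0.352% to 0.399% in *smg-2* and 0.428% to 0.516% in N2. Their part in the differences of the 10 genes was not tested.

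Genes of the oocyte surface and eggshell, a list of 15 that oocytes make at the same stage as the late genes, had a median log2 change of -0.88 in *smg-1*. Limma called 13 of them lower there, against 9.25% of all genes. *cbd-1*, which encodes an eggshell chitin-binding protein, had 13621 and 18143 normalized counts in *clk-2*, 8786 and 7894 in *smg-1*, 10766 and 11442 in *smg-2* and 17099 and 13743 in N2. It fell in *smg-1* (-0.88, adjusted p = 0.00386 from limma) and did not differ by the test in *clk-2* (0.04, adjusted p = 0.890). *cpg-1*, a chondroitin proteoglycan gene of the eggshell, fell by 0.96 in *smg-1* (adjusted p = 0.00198) and had a log2 difference of 0.30 in *clk-2* (adjusted p = 0.178). In *clk-2*, 1 of the 15 was called higher, *egg-2* (0.56, adjusted p = 0.0388), against 12.2% of all genes, and the median of the list was 0.20. In *smg-2*, *perm-2* was called lower (-0.52, adjusted p = 0.0302) and no other, against 0.981% of all genes, and the median was -0.37. *egg-2* and *perm-2* are named because their counts were 1.

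Among 36 further germline RNA regulators, 35 passed the filter on low values. In *smg-1*, 22 of them were called lower and 1 higher, with a median of -0.52. Of all genes, 9.25% were called lower and 12.3% higher there. The most abundant, *larp-1* and *ifet-1*, a La-related protein gene and the gene of an eIF4E-binding repressor, fell by 0.50 (adjusted p = 0.00749 from limma) and 0.60 (adjusted p = 0.00400). The 1 higher gene was *fog-1*, a CPEB-family gene that specifies sperm, at 0.91 in *smg-1* (adjusted p = 0.00431) and 1.20 in *smg-2* (adjusted p = 9.68e-04). In *smg-2* the lower ones were *gld-3* (-0.44) and *cpb-3* (-0.37), and the median was -0.26. In that mutant 0.981% of all genes were called lower and 8.12% higher. In *clk-2*, 5 were called higher, *nos-2* (0.93), *meg-1* (0.88), *mex-6* (0.52), *mex-5* (0.49) and *gld-3* (0.30), and 2 lower, *cpb-2* (-1.34) and *puf-12* (-0.63), with a median of 0.08. Of all genes, 12.2% were called higher and 15.8% lower in *clk-2*. The 5 of 35 called higher were near the share of all genes, and the 2 called lower were below it. *nos-2*, *meg-1*, *mex-5* and *mex-6* are maternal genes that act in the early embryo, and *cpb-2* is a CPEB-family gene. These genes, except *larp-1*, *ifet-1* and *mex-6*, were named after their values were seen.

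The genes named here from other germline lists were chosen after their values were seen. Of 19 meiotic chromosome genes, the synaptonemal complex gene *syp-2* was called higher in *clk-2* (0.45, adjusted p = 0.0366 from limma), with a median of 0.05 for the list. This 1 of 19 was below the 12.2% of all genes called higher there. In *smg-1*, 4 were called lower, *htp-1* (-0.58), *htp-2* (-0.45), *syp-4* (-0.44) and the meiotic cohesin gene *rec-8* (-0.48), with a median of -0.18, and in *smg-2* only *rec-8* was (-0.42, median -0.11). Of all genes, 9.25% were called lower in *smg-1* and 0.981% in *smg-2*. Of 7 P granule genes, the helicase gene *glh-1* was called lower in *clk-2* (-0.70, adjusted p = 0.00183) and *deps-1* in *smg-1* (-0.41, adjusted p = 0.0455). Each was 1 of 7, against 15.8% of all genes called lower in *clk-2* and 9.25% in *smg-1*. The 4 genes of the gonadal sheath, the somatic cells around the oocytes, gave 0 calls in each mutant with limma, edgeR or DESeq2, and 1 higher in *clk-2* and 1 in *smg-1* at an unadjusted p under 0.05. The share of all genes higher at that unadjusted threshold is not given here, so no reading is drawn from these counts.

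**Figure D4:**
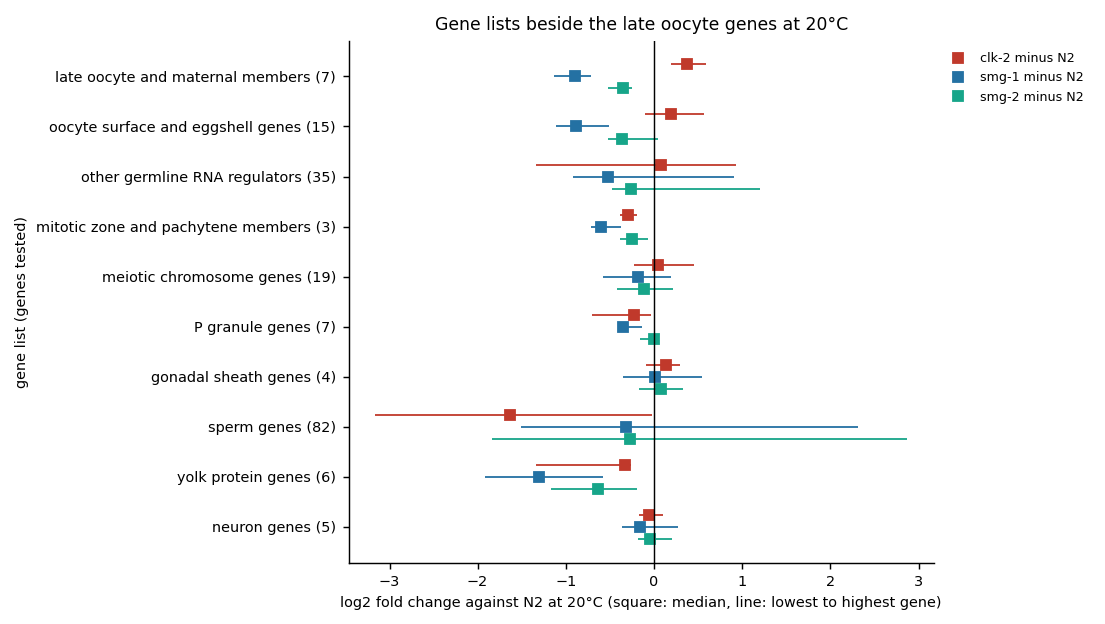
Log2 fold change against N2 at 20°C (x axis) of the late and early genes and 8 other gene lists in *clk-2*, *smg-1* and *smg-2*; the square is the median of the list and the line runs from its lowest to its highest gene. The sperm list is lowest in *clk-2* (-1.63), and the yolk (-1.31), late oocyte (-0.90) and eggshell (-0.88) lists are lowest in *smg-1*.

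Genes of other tissues and stages moved with some of these results. The 6 yolk protein genes, which the intestine makes and oocytes take up, were called lower in *smg-1* in 6 of 6 (median -1.31), in 1 of 6 in both *clk-2* and *smg-2* (*vit-3* in each, with list medians of -0.33 in *clk-2* and -0.63 in *smg-2*), and lay below -1 in 6 of 6 in *clk-2* against N2 at 25°C. Of all genes, 9.25% were called lower in *smg-1*, 15.8% in *clk-2* and 0.981% in *smg-2*, and 6.19% lay below -1 at 25°C. Their summed share was 1.19% to 1.37% of the library in *clk-2* at 20°C, 0.918% to 1.04% in *smg-1*, 1.09% to 1.40% in *smg-2* and 1.45% to 1.61% in N2. Genes first transcribed in the embryo, of which 6 of 12 were measured here and 3 passed the filter, summed to 145 and 428 normalized counts in *clk-2*, 47.9 and 42.0 in *smg-1*, 30.9 and 52.2 in *smg-2* and 74.4 and 47.6 in N2 at 20°C. The library with the highest sum, *clk-2* replicate 2, was also the highest of the 10 libraries in *lin-41*, *oma-2*, *spn-4*, *mex-3*, *pos-1* and *puf-5*. At 25°C the same sum was 152 in *clk-2* and 145 in N2. Of the 3 tested, *vet-2* (1.87, adjusted p = 0.0402) and *vet-6* (4.09, adjusted p = 0.0159) were called higher in *clk-2* by limma and are named for that reason. The share of all genes called higher there was 12.2%. The part of yolk, embryos or stage in the late genes was not tested.

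Genes of somatic tissues were called too, and are named after their values were seen. Of 5 intestine genes, 2 were called higher in *clk-2* and 2 in *smg-1*, against 12.2% of all genes in *clk-2* and 12.3% in *smg-1*. Of 4 pharynx genes, 3 were called lower in *clk-2* and 2 in *smg-1*, against 15.8% of all genes in *clk-2* and 9.25% in *smg-1*. Of 5 body muscle genes 2 were called lower in *smg-1*, and of 5 epidermis genes 1 was called in each mutant. In *smg-2*, 0.981% of all genes were called lower. The intestine genes *ges-1* (0.65 in *clk-2* and 0.59 in *smg-1*) and *ifb-2* (0.38 in *clk-2* and 0.39 in *smg-1*) were called higher, as was *dpy-7*, a cuticle collagen gene, in *clk-2* (3.02, adjusted p = 0.0136 from limma). The pharyngeal muscle genes *myo-1* (-0.53 in *clk-2* and -0.50 in *smg-1*) and *tnc-2* (-0.45 in *clk-2* and -0.52 in *smg-1*) were called lower, and *myo-2* in *clk-2* (-0.50). The body muscle genes *unc-54* (-0.46) and *unc-15* (-0.40) were called lower in *smg-1*, and the epidermal factor gene *lin-26* in *smg-1* (-0.77) and *smg-2* (-0.59). The 5 neuron genes gave 0 calls in each mutant with limma, edgeR or DESeq2, and 1 higher in *smg-1* at an unadjusted p under 0.05. Here too the share of all genes at that threshold is not given, and no reading is drawn from the count. The part of somatic tissues in the differences of the 10 genes was not tested.

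The genes whose profile over the 10 libraries was nearest to the mean of the late genes were taken from 8545 candidates averaging at least 100 normalized counts, by the root mean square of the log2 differences after centring each gene. They were *egg-1* (0.079), *cpg-1* (0.082), *szy-4* (0.086), *mex-6* (0.096) and *mom-2* (0.10). *egg-1*, which encodes an LDL-receptor-like protein of the oocyte surface, had 2221 and 3075 normalized counts in *clk-2*, 1259.6 and 1132 in *smg-1*, 1630.4 and 1729 in *smg-2* and 2466 and 1982 in N2. *mom-2*, a Wnt ligand gene of the early embryo, had 579.8 and 763 in *clk-2*, 279.0 and 249 in *smg-1*, 321 and 320.4 in *smg-2* and 498 and 422 in N2. Both were lowest in *smg-1* and highest in *clk-2* replicate 2, as were 6 of the 7 late genes. They were picked for nearness to the late genes over these same libraries, so this likeness follows from the choice. The genes nearest to *lin-41* alone were *zif-1* (0.12), which encodes an E3 ligase subunit that degrades maternal CCCH proteins, the gene *Y110A2AR.1* (0.13) and *mex-1* (0.13), a maternal CCCH zinc finger gene.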

How the data were processed

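Whole-animal RNA was depleted of rRNA and made into ScriptSeq libraries according to the study's methods, while the labels also name a TruSeq mRNA kit. Per the methods and the submitters' processing notes, the authors mapped reads to WBcel235 with STAR 2.5.4a, allowing up to 3 mismatches and keeping reads with a single match, counted them on exons of protein-coding genes, and normalized with DESeq2. The deposited signal values are read counts divided by a size factor per library. All values (100% within a relative tolerance of 1e-06) were whole reads times the value of 1 read, so reads were recovered. Of 15106 genes, 14967 were in the Ensembl 115 annotation and 14720 had a symbol. Columns left without a sample numbered 0.

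log2(value + 1) was fitted with limma 3.58.1 (lmFit, eBayes with a trend, R 4.3.3) over the 8 libraries at 20°C, for 13869 genes with a mean of at least 10. All p-values are two-sided, and except where called unadjusted they are Benjamini-Hochberg adjusted over these genes. With DESeq2 the adjusted p-values and shares cover the genes to which it gave an adjusted p. These were 13869 in *clk-2*, 13600 in *smg-1* and 13331 in *smg-2*, each against N2, and 11180 in *smg-1* against *smg-2*. The 2 libraries at 25°C were compared without a test. The recovered reads were tested with edgeR 4.0.16 (quasi-likelihood, TMM) and DESeq2 1.42.0. The limma step was tested on simulated data. Other alternatives were the pseudocount (0.1 and 10), the filter (none, or a mean of at least 100), quantile normalization, no variance trend, only the 2 groups compared, the study's fold threshold, a replicate block, leaving out each library, and, for 25°C, a reference of N2 at 20°C. The block with crossed *clk-2* numbers, the fit with only replicate 2 of *clk-2* and N2, and the comparison of *smg-1* with *smg-2* were added after seeing the data.

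The 10 genes and all lists were chosen with earlier results of these data known. Further genes were named from the 2 most abundant of each list and from the nearest profiles (5 to the late genes, 3 to *lin-41*), and others where a count was small. Nothing in the labels ties equal replicate numbers of different strains to a shared batch. No protein or promoter sequence was used here.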

Additional observations from a re-analysis of the deposited data

Results flagged for a closer look

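Of the late genes, 4 had opposite directions in a pair of comparisons without overlap between the libraries in either comparison. For *oma-2*, *spn-4* and *pos-1* the pair was *clk-2* against N2 at each temperature, and for *oma-2*, *spn-4* and *puf-5* it was 25°C against 20°C in each strain. These differences were not tested, since there is 1 library per strain at 25°C, and each value below is a log2 difference.

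*oma-2* was -0.33 in *clk-2* against N2 at 25°C and 0.54 at 20°C, and 25°C against 20°C it was -0.39 in *clk-2* and 0.48 in N2. *spn-4* was -0.38 in *clk-2* against N2 at 25°C and 0.37 at 20°C, and 25°C against 20°C it was -0.31 in *clk-2* and 0.44 in N2. *pos-1* was -0.24 in *clk-2* against N2 at 25°C and 0.58 at 20°C. *puf-5* was -0.44 in *clk-2* and 0.20 in N2 for 25°C against 20°C. The *clk-2* library at 25°C was the shallowest of the 10, with 3051836 reads, and the part of depth was not tested.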

How the results depend on the processing

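Over 21 alternatives for each of the 10 genes and 6 comparisons (1260 values), 1145 kept their direction and their side of the threshold, 56 lost a call, 47 gained one and 12 changed sign; the causes were not tested. The changes of sign were *fbf-2* in *clk-2* against *smg-1* (0.068 with quantile normalization, 0.0055 with DESeq2, 0.075 without *clk-2* replicate 1, 0.099 without *smg-1* replicate 1 and 0.075 with only replicate 2 of *clk-2* and N2, and -0.13 to 0.099 on leaving out 1 library), *fbf-2* in *smg-2* against N2 (0.060 without *smg-2* replicate 2, 0.0078 without N2 replicate 1 and 0.0078 with only replicate 2 of *clk-2* and N2, and -0.19 to 0.060 on leaving out 1 library), *gld-1* in *clk-2* against *smg-2* (0.13 without *clk-2* replicate 1, 0.11 without *smg-2* replicate 2 and 0.13 with only replicate 2 of *clk-2* and N2, and -0.22 to 0.13 on leaving out 1 library) and *puf-5* in *clk-2* against N2 (-0.14 without *clk-2* replicate 2, and up to 0.53 on leaving out another). None of these was called in the fit reported.

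The 3 genes called higher in *clk-2* against N2 became 0 with only the 2 groups compared, 0 without a variance trend, 0 under the study's fold threshold and 7 with only replicate 2 of *clk-2* and N2, and leaving out 1 library gave 0 to 4. Of all genes, 1698 called higher there became 823 with only the 2 groups compared. The fit with only replicate 2 of *clk-2* and N2 keeps a single library of each strain. Its share of all genes called higher is not given here, so no reading is drawn from its count. The 9 lower in *smg-1* became 1 under the fold threshold (170 of all genes), as did the 6 higher in *clk-2* than in *smg-2* (980 of all genes). The 0 lower in *smg-2* became 2 with DESeq2 (1.37% of all genes) and 1 with crossed numbers (183 of all genes). The 0 lower in *smg-1* than in *smg-2* became 8 with only the 2 groups compared (5.11% of all genes), 3 with DESeq2 (1.62%) and 1 with crossed numbers (87 of all genes). The largest adjusted p over the alternatives was 0.110 for *lin-41*, 0.133 for *oma-2* and 0.168 for *pos-1* in *clk-2* against N2.

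With the replicate number as a block, 2 genes were called higher in *clk-2* against N2, *pos-1* being lost (adjusted p = 0.0510 from limma), and 9 lower in *smg-1*, 0 in *smg-2*, 9 higher in *clk-2* than in *smg-1* and 6 than in *smg-2*. Of all 13869 genes, this fit called 1465, 1011, 81, 2370 and 1965 in that order. Equal numbers deviated together with a correlation of -0.27 for *clk-2* and N2, -0.10 for *smg-1* and N2 and 0.096 for *smg-2* and N2, so the numbers were not taken as pairs. With the *clk-2* numbers crossed, 4 genes were called higher and 1 lower in *clk-2* against N2, against 1820 and 2288 of all genes.

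Counts over all genes moved by over 1.5 times as well. In *clk-2* against N2, 1698 higher and 2193 lower became 823 and 1439 with only the 2 groups compared and 885 and 1394 with a mean of at least 100, and the lower ones 1427 under the fold threshold. In *smg-1*, 1702 higher became 1067 with a mean of at least 100, and 1283 lower became 848 with only the 2 groups, 524 without a trend and 170 under the fold threshold. In *smg-2*, 1126 higher became 687 with a mean of at least 100, and 136 lower became 81 with the block, 68 with only the 2 groups, 47 without a trend, 53 under the fold threshold and 922 with only replicate 2 of *clk-2* and N2. In *clk-2* against *smg-1*, 2604 higher became 951 under the fold threshold and 3344 lower became 2004 with a mean of at least 100, and against *smg-2*, 2193 higher became 980 and 3174 lower 1934. The 62 higher and 69 lower in *smg-1* against *smg-2* ranged from 0 to 851 and from 0 to 709. Leaving out 1 library gave 887 to 1771 higher and 1860 to 2101 lower in *clk-2*, 855 to 2068 and 253 to 1537 in *smg-1*, and 668 to 1276 and 19 to 393 in *smg-2*, each against N2, 1384 to 3127 and 2368 to 3600 in *clk-2* against *smg-1*, and 813 to 2688 and 2039 to 3419 in *clk-2* against *smg-2*.

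With N2 at 20°C as the reference, *clk-2* at 25°C stood at 0.40 in *lin-41*, 0.54 in *oma-1*, 0.15 in *oma-2*, 0.059 in *spn-4*, 0.074 in *mex-3*, 0.37 in *pos-1* and -0.24 in *puf-5*. There were 2 libraries per strain at 20°C, and *clk-2* replicate 1 held 3523986 reads. The smallest difference that these libraries could show was not measured.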
